A study of Mus musculus with 4 samples.

Results

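The 41 genes described here code for the extracellular matrix and for the fibroblasts that build it: collagens, proteoglycans, elastic fibre and adhesive proteins, their proteases and inhibitors, and a few fibroblast receptors. They were taken by name, with earlier results of these data known, and every probe set annotated to 1 of these symbols was read on the 4 arrays of the series. Of the 41, 40 had at least 1 probe set and together they had 87, among the 34945 probe sets that name a single gene and the 18193 genes these stand for. Fbn1 had none among the values used here. The arrays carried RNA of Peyer's patch (PP) cells from NK318.1 mice, PP cells from GF mice, intestinal epithelial cells (IEC) from NK318.1 mice and IEC from GF mice. All were C57BL/6 mice raised germ-free in vinyl isolators. GF mice stayed germ-free, and NK318.1 mice were GF mice that received 100000000 of a single bacterium, Lactobacillus NK318.1, with tissues taken 2 weeks later. Each group was 1 array of pooled RNA, so the variation among mice is unknown, nothing could be tested, and every ratio sets 1 array against another.

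Fibroblasts secrete collagen that assembles into fibres outside the cell, and proteoglycans, fibulins and adhesive glycoproteins bind these fibres and tie cells to them. In the gut wall such cells lie under the epithelium, which rests on a basement membrane of collagen IV, laminin and nidogen. In Peyer's patches, the lymphoid organs of the small intestine, fibroblastic reticular cells enclose collagen fibres in a meshwork along which lymphocytes move. Several of the 41 genes are not restricted to fibroblasts: Vim is also made by lymphocytes, Fn1 by macrophages, and Thbs1 and Col18a1 by endothelial and epithelial cells.

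Values are array intensities on a linear scale, and ratios are log2 of the NK318.1 intensity over the GF intensity unless stated otherwise. An intensity under 15.5, the floor, was raised to it, and only genes above the floor on at least 1 of the 2 arrays compared were taken as measured. The 4 arrays had median intensities of about 23 and 59.1% to 61.0% of probe sets above the floor. The defining markers of the labelled tissues were present: Ptprc, the leukocyte antigen CD45, had 5235 in NK318.1 PP and 5152 in GF PP, and Epcam, an epithelial adhesion molecule, had 3623 in NK318.1 IEC and 3926 in GF IEC. Xist, the RNA of X inactivation in female cells, had 4586 in NK318.1 PP against 21.7 in GF PP and 4889 in NK318.1 IEC against 46.7 in GF IEC, while the 3 Y-linked genes measured were at least 2-fold lower with NK318.1 in both tissues. Sex of the pooled mice and colonization therefore cannot be told apart in any comparison of NK318.1 with GF mice.

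Most matrix genes had lower intensities in NK318.1 than in GF mice in PP, with a small median difference, and higher ones in IEC. In PP, 0 of the 33 measured members were at least 2-fold higher in NK318.1 mice (0.149% of all measured genes were) and 4 were at least 2-fold lower (0.573% of all genes). These were Mgp, Bgn, Col5a2 and Fn1. In IEC, 12 of 40 were at least 2-fold higher in NK318.1 mice (2.63% of all genes), led by Dpt, Ogn, Efemp1 and Dcn, and 0 were at least 2-fold lower (1.54% of all genes). The median log2 ratio of the members was −0.18 in PP (interquartile range −0.78 to −0.08), against −0.03 (−0.17 to 0.09) over all 12736 genes measured there. In IEC the median of the members was 0.78 (0.19 to 1.24), against 0.02 (−0.23 to 0.28) over all 13874 genes. The PP median thus lay close to the lower quartile of all genes, and the IEC median well above their upper quartile. Below 0 were 27 of 33 members in PP (57.2% of all genes), and above 0 were 34 of 40 in IEC (52.4% of all genes). Where only 1 array lay above the floor, the ratio is a bound whose sign the floor fixed, as for Col1a1, Lama4 and Thbs2 in PP and Col1a1, Loxl1 and Sparcl1 in IEC. Without bounds, 25 of 30 members were below 0 in PP (57.6% of all genes) and 32 of 37 were above 0 in IEC (52.6%). With no floor all 40 members entered both comparisons: the median was −0.15 in PP, with 0 higher and 5 lower, and 0.82 in IEC, with 12 higher and 0 lower. Averaging all probe sets of a gene, dim ones included, left 1 of 27 measured members at least 2-fold lower in PP and 6 of 33 at least 2-fold higher in IEC. Shares over all genes were not computed without the floor or with averaged probe sets. The arrays hold RNA of whole preparations, so a different share of matrix-producing cells and a different amount of matrix RNA per cell cannot be told apart.

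**Figure D1:**
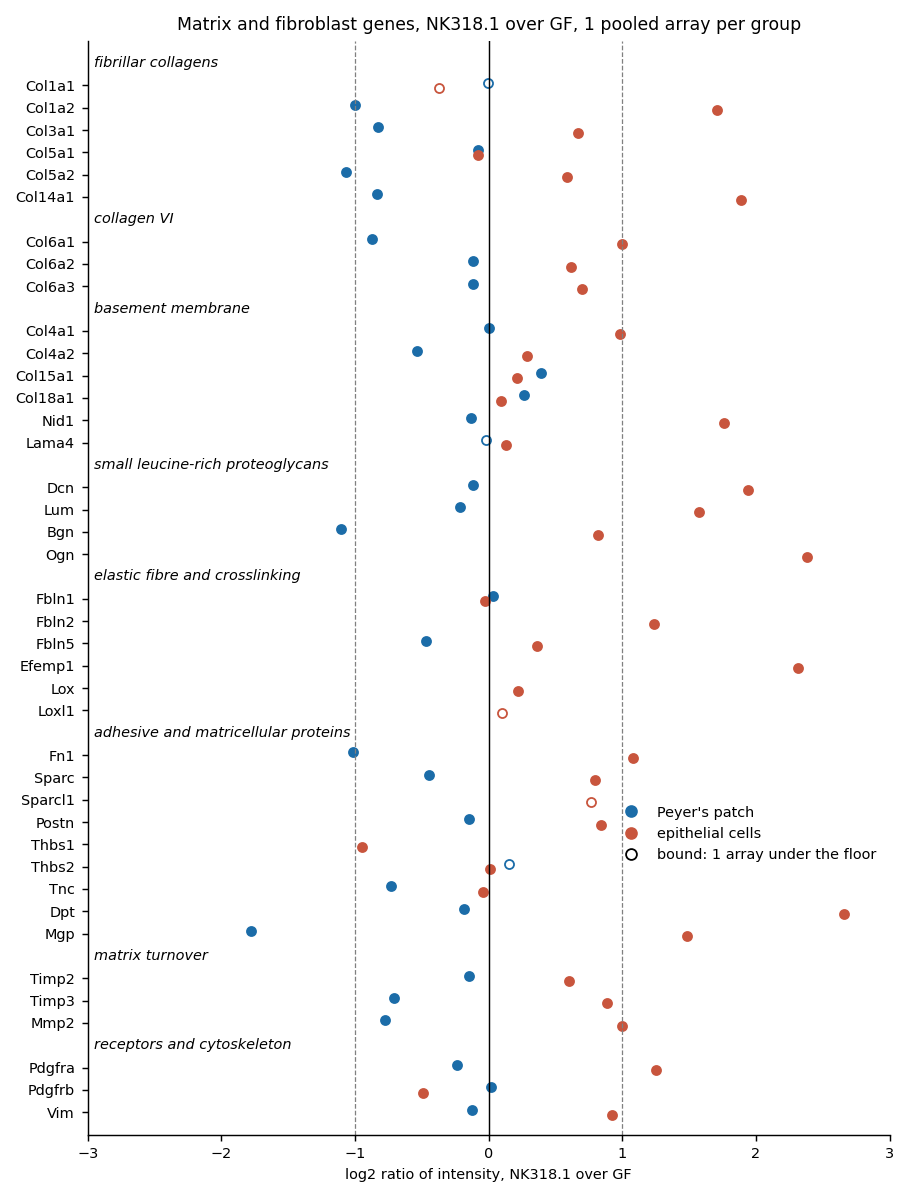
Log2 ratio of intensity, NK318.1 over GF (horizontal axis), of each measured matrix and fibroblast gene by role (vertical axis), in Peyer's patch (blue) and epithelial cells (red), 1 pooled array per group. Open points are bounds because 1 array lay under the floor, and dashed lines mark 2-fold; most blue points lie left of 0 and most red points right of it, with Mgp at −1.78 in Peyer's patch and Dpt at 2.66 in epithelial cells as the extremes.

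Many members were dim. Of the 33 measured in PP, 9 had under 31.0 (2 times the floor) on both arrays, and of the 40 in IEC, 13 did. Ogn, Fbln2, Efemp1, Lox, Loxl1, Sparcl1 and Thbs1 were under the floor on both PP arrays and have no PP ratio.

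Other values moved with the IEC ratios. The gastric mucosa list holds genes of stomach epithelium. Of its 14 genes measured in IEC, 12 passed 2-fold upwards. The summed intensity of the list was 37078 in NK318.1 IEC against 546 in GF IEC. Its defining genes Gkn1 and Gkn2 had 5430 and 9949 in NK318.1 IEC, against 11.5 and 12.6 in GF IEC, where they were under the floor. Pancreatic acinar genes summed to 18992 in NK318.1 IEC against 7153 in GF IEC, with 11 of 14 at least 2-fold higher and 1, Pnliprp2, a pancreatic lipase-related protein, lower (−1.52). Lymphocyte genes summed to 664 in NK318.1 IEC against 4547 in GF IEC, with 7 of 12 at least 2-fold lower, and 14 intestinal epithelial genes to 47113 in NK318.1 IEC against 60125 in GF IEC, with 0 past 2-fold. The median signal of 9 hybridization spike-in probe sets was 1746 on the NK318.1 IEC array and 775 on the GF IEC array, and the ratio of 3′ to 5′ actin probe sets, which grows as RNA degrades, was 4.10 on the NK318.1 IEC array and 2.73 on the GF IEC array. In PP the same spike-ins had 459 in NK318.1 mice and 412 in GF mice, and the actin ratio was 1.74 in NK318.1 mice and 1.60 in GF mice. The part of these differences in the matrix ratios was not tested.

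Dpt, Ogn and Efemp1 were the 3 members more than 4-fold higher in NK318.1 IEC, and Bgn was lower in NK318.1 PP and higher in NK318.1 IEC. Their promoters are shown because the first 3 had the highest IEC ratios and Bgn was the proteoglycan past 2-fold in PP. Each window runs from 250 bases before to 50 after the annotated start (RefSeq, GRCm38.p6, plus strand for all 4), with matches to TATAAA, the TATA box, or GGGCGG, the GC box, in capitals on either strand (CCGCCC is GGGCGG on the other strand).
Dpt, chr1:164796413-164796712: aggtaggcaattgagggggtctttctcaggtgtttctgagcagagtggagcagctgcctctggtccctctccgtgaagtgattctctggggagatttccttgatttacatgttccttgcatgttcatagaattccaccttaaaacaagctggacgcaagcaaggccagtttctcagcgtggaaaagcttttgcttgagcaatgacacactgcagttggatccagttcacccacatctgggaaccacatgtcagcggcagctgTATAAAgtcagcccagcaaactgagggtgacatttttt
Ogn, chr13:49607765-49608064: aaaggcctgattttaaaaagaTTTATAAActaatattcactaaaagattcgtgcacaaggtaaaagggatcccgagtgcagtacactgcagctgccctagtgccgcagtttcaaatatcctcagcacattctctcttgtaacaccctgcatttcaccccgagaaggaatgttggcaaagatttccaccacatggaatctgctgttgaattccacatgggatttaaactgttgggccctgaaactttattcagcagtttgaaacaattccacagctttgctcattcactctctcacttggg
Efemp1, chr11:28852955-28853254: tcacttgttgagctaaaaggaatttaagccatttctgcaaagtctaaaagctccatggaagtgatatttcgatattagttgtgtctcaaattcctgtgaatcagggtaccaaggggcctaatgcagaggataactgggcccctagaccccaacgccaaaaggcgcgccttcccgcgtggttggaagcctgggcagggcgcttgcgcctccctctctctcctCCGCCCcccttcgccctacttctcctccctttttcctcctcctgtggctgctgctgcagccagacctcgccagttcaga
Bgn, chrX:73483351-73483650: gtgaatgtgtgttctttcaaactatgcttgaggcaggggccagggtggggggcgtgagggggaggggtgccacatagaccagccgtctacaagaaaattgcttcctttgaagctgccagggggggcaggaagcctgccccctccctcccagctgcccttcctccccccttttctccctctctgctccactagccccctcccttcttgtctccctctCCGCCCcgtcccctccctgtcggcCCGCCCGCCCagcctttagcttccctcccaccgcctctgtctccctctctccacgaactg
The Dpt match to TATAAA starts at base 263 of the window, past the annotated start. In Ogn, matches on the 2 strands overlap and start at bases 22 and 24. Efemp1 has 1 GC box at base 222, and Bgn has 3, at bases 217, 241 and 245, of which the last 2 overlap. Promoter windows were given for 27 of the 41 genes, 33 windows in all. TATAAA was in 24.2% of these 33, against 13.6% of all 32851 windows of this length, and GGGCGG in 54.5% against 35.7%. These matches describe the letters only.

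Of the fibrillar collagens and the fibril-associated Col14a1, all 6 measured were below 0 in PP (median −0.83) and 4 of 6 were above 0 in IEC (median 0.63). Col1a2, which codes for a chain of type I collagen, the main collagen of connective tissue, had 70.3 in NK318.1 PP and 140.4 in GF PP, and 158 in NK318.1 IEC and 48.6 in GF IEC. Its log2 ratio was thus −0.998 in PP, 1.998-fold lower and just short of the limit, and 1.70 in IEC. Col14a1, a collagen that sits on the surface of fibrils, had 32.7 in NK318.1 PP and 58.5 in GF PP (−0.84), and 78.1 in NK318.1 IEC and 21.1 in GF IEC (1.89). Col5a2, a chain of the type V collagen that sets fibril width, had 20.4 in NK318.1 PP and 42.8 in GF PP (−1.07), and 27.8 in NK318.1 IEC and 18.5 in GF IEC (0.59). Col3a1, type III collagen, had 44.4 in NK318.1 PP and 78.9 in GF PP (−0.83), and 119 in NK318.1 IEC and 74.4 in GF IEC (0.67). In each of these 4 genes the NK318.1 array was the lower one in PP and the higher one in IEC. Col5a1, the partner of Col5a2, had 27.5 in NK318.1 PP and 29.1 in GF PP, and 36.2 in NK318.1 IEC and 38.3 in GF IEC (−0.08 in both tissues). Col1a1, the partner chain of Col1a2, did not follow it: its intensities were 14.9 in NK318.1 PP, 15.6 in GF PP, 13.4 in NK318.1 IEC and 20.04 in GF IEC, all near the floor, so that its ratios are bounds. A single probe set carried each of the called ratios here. In IEC a second probe set of Col1a2 had 0.23 and one of Col14a1 0.63.

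Collagen VI forms beaded filaments between fibres and cells, and its 3 chains ran the same way: all were below 0 in PP and above 0 in IEC. Col6a1 had 20.7 in NK318.1 PP and 37.9 in GF PP (−0.87), and 54.8 in NK318.1 IEC and 27.5 in GF IEC, 1.995-fold higher. Col6a2 had 38.4 in NK318.1 PP and 41.5 in GF PP (−0.11), and 104 in NK318.1 IEC and 68.1 in GF IEC (0.62). Col6a3 had 22.2 in NK318.1 PP and 24.1 in GF PP (−0.12), and 27.6 in NK318.1 IEC and 17.0 in GF IEC (0.70).

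Basement membrane genes differed less in PP, where 3 of 6 were below 0, and all 6 were above 0 in IEC, with a median of 0.25. Nid1, nidogen, which links laminin to collagen IV, was the only 1 of them past 2-fold. It had 55.5 in NK318.1 PP and 60.8 in GF PP (−0.13), and 67.4 in NK318.1 IEC and 19.95 in GF IEC (1.76), with a second probe set at 0.27 in IEC. Thus the 2 PP arrays and the NK318.1 IEC array lay close together and the GF IEC array alone was low. Col4a1, a collagen IV chain, had 33.0 in NK318.1 PP and 33.0 in GF PP (0.00), and 50.4 in NK318.1 IEC and 25.5 in GF IEC (0.98), where its other probe set had 0.91. In PP that other probe set had −0.55, so the sign there rests on the probe set. Col4a2, its partner chain, had 19.5 in NK318.1 PP and 28.2 in GF PP (−0.53), and 23.8 in NK318.1 IEC and 19.5 in GF IEC (0.29). Col15a1 and Col18a1, collagens anchored at the basement membrane, had positive ratios in both tissues. Col15a1 had 21.9 in NK318.1 PP and 16.7 in GF PP (0.39), and 27.03 in NK318.1 IEC and 23.3 in GF IEC (0.21). Col18a1 had 25.5 in NK318.1 PP and 21.2 in GF PP (0.27), and 51.2 in NK318.1 IEC and 47.98 in GF IEC (0.09), but its other probe set had −0.06 in PP and −0.19 in IEC. Lama4, a laminin chain of vessel walls, had 14.9 in NK318.1 PP and 15.7 in GF PP (−0.02, a bound), and 21.7 in NK318.1 IEC and 19.8 in GF IEC (0.13).

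Small leucine-rich proteoglycans bind collagen fibrils and regulate their spacing, and this group had the highest IEC median of the role groups, 1.76 over 4 genes. Dcn, decorin, had 465.5 in NK318.1 PP and 504.5 in GF PP (−0.12), and 823 in NK318.1 IEC and 214 in GF IEC (1.94). Lum, lumican, had 41.4 in NK318.1 PP and 48.1 in GF PP (−0.22), and 58.7 in NK318.1 IEC and 19.7 in GF IEC (1.57). Both differed little in PP. Ogn, osteoglycin, had 88.5 in NK318.1 IEC and 17.0 in GF IEC (2.38), and 5.30 in NK318.1 PP and 12.4 in GF PP, both under the floor. Its second probe set had 1.03 in IEC. It was the only member past 2-fold in IEC on all measured probe sets among the 4 that had more than 1. Bgn, biglycan, had 101 in NK318.1 PP and 218 in GF PP (−1.11), and 95.5 in NK318.1 IEC and 54.3 in GF IEC (0.81). Its other probe sets had −0.35 and −0.38 in PP and 0.77 and 0.71 in IEC: the signs were shared by all 3, but only 1 passed 2-fold in PP.

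Of the fibulins, which join elastic fibres and basement membranes, Efemp1 (fibulin-3) and Fbln2 were past 2-fold in IEC. Efemp1 had 102 in NK318.1 IEC and 20.5 in GF IEC (2.32), and 5.89 in NK318.1 PP and 5.32 in GF PP. Fbln2 had 69.0 in NK318.1 IEC and 29.3 in GF IEC (1.24), and 15.1 in NK318.1 PP and 14.7 in GF PP. Neither was above the floor in PP. Fbln5 had 22.8 in NK318.1 PP and 31.7 in GF PP (−0.47), and 21.7 in NK318.1 IEC and 16.9 in GF IEC (0.36). Fbln1 had 45.4 in NK318.1 PP and 44.5 in GF PP (0.03), and 47.6 in NK318.1 IEC and 48.5 in GF IEC (−0.03), with IEC probe sets between −0.25 and 0.22 and its other probe sets under the floor in PP. Lox and Loxl1, the enzymes that crosslink collagen and elastin, stayed near or under the floor. Lox had 11.2 in NK318.1 PP and 11.7 in GF PP, and 19.8 in NK318.1 IEC and 17.0 in GF IEC (0.22). Loxl1 had 9.47 in NK318.1 PP and 10.5 in GF PP, and 16.6 in NK318.1 IEC and 9.39 in GF IEC (0.10, a bound).

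**Figure D2:**
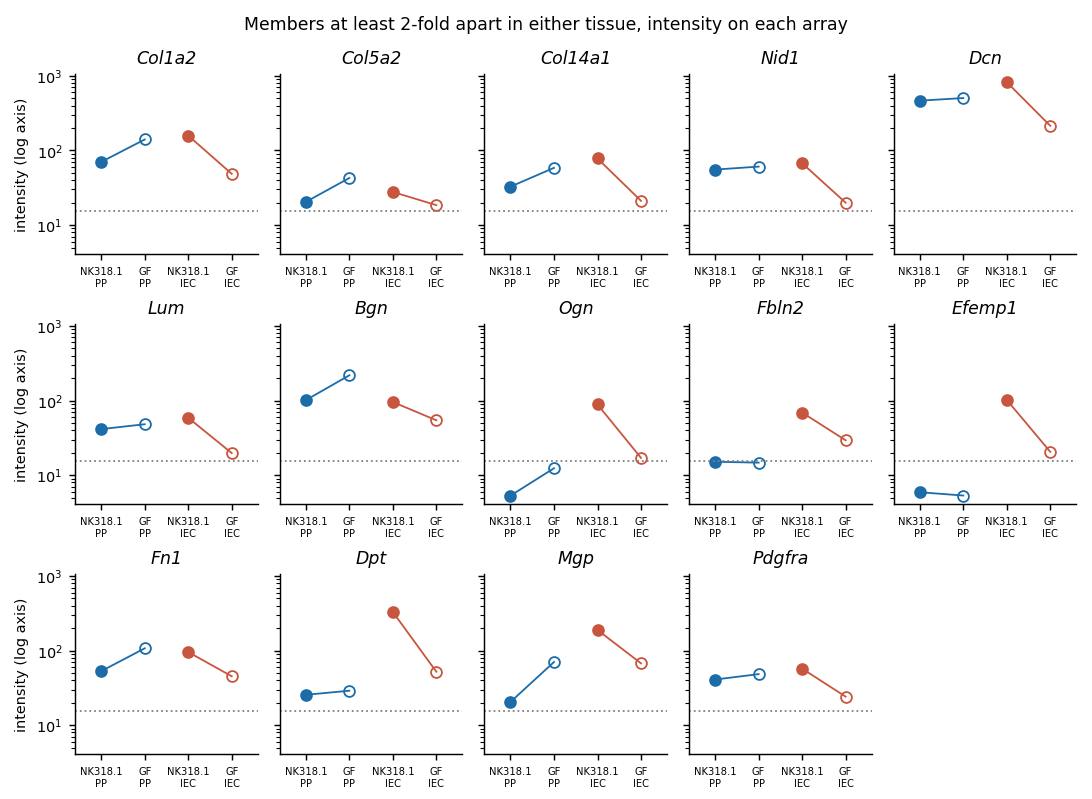
Intensity on a log axis (vertical) on each of the 4 arrays (horizontal) for the 14 members at least 2-fold apart in either tissue; filled points are NK318.1 and open points GF, blue Peyer's patch (PP) and red epithelial cells (IEC), and the dotted line is the floor of 15.5. In IEC every one of the 14 was higher with NK318.1, but 12 are those already counted as at least 2-fold higher there. Ogn, Fbln2 and Efemp1 lay under the floor on both PP arrays.

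Among adhesive and matricellular proteins were the member highest in IEC and the member lowest in PP. Dpt, dermatopontin, which binds decorin and promotes collagen fibril assembly, had 328 in NK318.1 IEC and 51.9 in GF IEC (2.66, 6.32-fold), and 25.5 in NK318.1 PP and 28.9 in GF PP (−0.18). Mgp, matrix Gla protein, an inhibitor of calcification, had 20.5 in NK318.1 PP and 70.2 in GF PP (−1.78, 3.43-fold lower), and 189 in NK318.1 IEC and 67.4 in GF IEC (1.49). Its intensity was nearly the same on the 2 GF arrays and differed between the 2 NK318.1 arrays. Fn1, fibronectin, the adhesive glycoprotein that integrins bind, had 52.9 in NK318.1 PP and 107 in GF PP (−1.02), and 95.5 in NK318.1 IEC and 45.2 in GF IEC (1.08). Mgp and Fn1 were the 2 members past 2-fold in opposite directions in the 2 tissues. Sparc, a collagen-binding matricellular protein, had 114 in NK318.1 PP and 156 in GF PP (−0.45). It had 94.4 in NK318.1 IEC and 54.2 in GF IEC (0.80). Of its 3 probe sets, however, 1 had 0.07 in PP and 0.15 in IEC. Postn, periostin, had 348 in NK318.1 PP and 385 in GF PP (−0.15), and 36.9 in NK318.1 IEC and 20.6 in GF IEC (0.84). Tnc, tenascin-C, had 26.1 in NK318.1 PP and 43.4 in GF PP (−0.73), and 20.3 in NK318.1 IEC and 20.9 in GF IEC (−0.05). It was thus lower with NK318.1 in PP and nearly level in IEC. Thbs1, thrombospondin-1, an inhibitor of vessel growth, went the other way in IEC, with 38.2 in NK318.1 IEC and 73.8 in GF IEC (−0.95), and its second probe set had −1.36. In PP it had 8.73 in NK318.1 mice and 8.09 in GF mice. It was the lowest member in IEC. Thbs2, the related thrombospondin-2, had 17.2 in NK318.1 PP and 13.4 in GF PP, and 16.2 in NK318.1 IEC and 16.1 in GF IEC. Sparcl1, a relative of Sparc, had 12.1 in NK318.1 PP and 10.6 in GF PP, and 26.3 in NK318.1 IEC and 13.96 in GF IEC, at least 1.70-fold higher.

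Matrix turnover genes also lay below 0 in PP and above 0 in IEC. Mmp2, the protease gelatinase A, had 25.5 in NK318.1 PP and 43.7 in GF PP (−0.78), and 44.6 in NK318.1 IEC and 22.3 in GF IEC, 1.995-fold higher. Its other probe set had −0.81 in PP and 0.55 in IEC. Timp3, a protease inhibitor bound to matrix, had 39.7 in NK318.1 PP and 64.9 in GF PP (−0.71), and 80.5 in NK318.1 IEC and 43.5 in GF IEC (0.89). Its second measured probe set had 0.01 in PP and 0.68 in IEC. Timp2, which inhibits and also helps activate Mmp2, had 273 in NK318.1 PP and 303 in GF PP (−0.15), and 104 in NK318.1 IEC and 68.6 in GF IEC (0.60). It has the most probe sets of any member, 6, and the 4 measured in IEC ran between 0.26 and 1.82, so the size of its ratio there depends on the probe set.

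The last group holds growth factor receptors and vimentin. Pdgfra, the PDGF receptor of fibroblasts, had 40.9 in NK318.1 PP and 48.3 in GF PP (−0.24), and 57.2 in NK318.1 IEC and 24.1 in GF IEC (1.25). Pdgfrb, the PDGF receptor that also marks pericytes, had 32.1 in NK318.1 PP and 31.8 in GF PP (0.02), and 21.4 in NK318.1 IEC and 30.05 in GF IEC (−0.49), but 0.15 on its other probe set in IEC. Vim, the intermediate filament vimentin, had 1045 in NK318.1 PP and 1142 in GF PP (−0.13), and 217 in NK318.1 IEC and 115 in GF IEC (0.92). Its 3 probe sets gave 0.80 to 0.92 in IEC.

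Values just on either side of the 2-fold limit were close. In PP, Col5a2 (2.094-fold) and Fn1 (2.024-fold) lay just inside it and Col1a2 (1.998-fold) just outside, all lower with NK318.1. In IEC, Fn1 (2.114-fold) lay just inside. Mmp2 and Col6a1 (both 1.995-fold), Col4a1 (1.977-fold) and Vim (1.893-fold) lay just outside, all higher with NK318.1, as did Thbs1 (1.932-fold), which was lower. Over all probe sets of the members, 0 of 49 measured in PP were at least 2-fold higher and 4 lower, and 15 of 65 measured in IEC were higher and 1, of Thbs1, lower. Shares over all measured probe sets of the arrays were not computed, so these counts have no background to be read against. Where a member had more than 1 measured probe set, all had the same sign in 6 of 11 members in PP and in 15 of 19 in IEC.

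Taking the 33 members measured in both tissues, 24 were below 0 in PP and above 0 in IEC, which held for 30.3% of the 12260 genes measured in both. Without bounds it held for 23 of 30 members and 30.7% of all genes. Most members were already below 0 in PP and above 0 in IEC taken singly, so these joint counts are not a further result. Fbln1 and Pdgfrb had the opposite signs, 4 were above 0 in both tissues and 3 below 0 in both. Across these 33 genes the 2 ratios had a Pearson r of −0.341, and 0.0475 across all 12260 genes. All points of a tissue share the same 2 arrays, so genes are not independent replicates. Dcn, Nid1, Dpt and Lum had PP ratios between −0.22 and −0.12 beside IEC ratios over 1.5, while Tnc had −0.73 in PP and −0.05 in IEC.

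**Figure D3:**
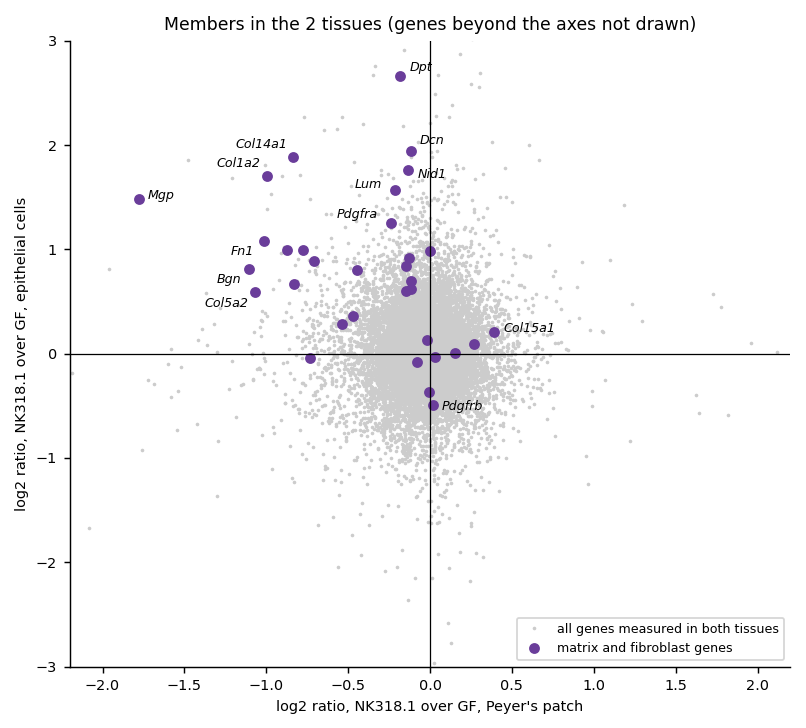
Log2 ratio, NK318.1 over GF, in Peyer's patch (horizontal) and epithelial cells (vertical) for each gene measured in both tissues, 1 pooled array per group; purple, matrix and fibroblast genes, grey, all genes. The upper left holds 24 of the 33 purple points, with Mgp farthest left and Dpt highest.

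The same 4 intensities can be read between tissues within each kind of mouse. Within NK318.1 mice, 3 of 39 measured members were at least 2-fold higher in PP than in IEC (16.8% of all genes) and 13 at least 2-fold lower (18.4%). The median there, PP over IEC, was −0.48 on the log2 scale, against −0.11 over all genes. Within GF mice, 14 of 38 were at least 2-fold higher in PP (18.5% of all genes) and 2 at least 2-fold lower (16.0%), with a median of 0.48, against −0.04 over all genes. The mean of all probe sets gave a GF median of 0.15, and members above 2 times the floor, a subset chosen after seeing the data, had one of 0.99 in GF mice and −0.84 in NK318.1 mice. Of the ratios below 0, 8 in NK318.1 mice and 6 in GF mice were bounds whose sign the floor fixed, since only the IEC array lay above it. Without bounds, 22 of 31 members were lower in PP than in IEC in NK318.1 mice (52.9% of all genes), and 24 of 32 were higher in PP than in IEC in GF mice (51.8%). The widest shifts were those of Mgp, at −3.21 in NK318.1 mice and 0.06 in GF mice, and Dpt, at −3.69 in NK318.1 mice and −0.84 in GF mice. Postn (3.24 in NK318.1 mice, 4.22 in GF mice), Vim (2.27 in NK318.1, 3.32 in GF) and Timp2 (1.40 in NK318.1, 2.15 in GF) were at least 2-fold higher in PP in both kinds of mice. The Timp2 values are those of its brightest probe set. Its other measured probe sets had 0.39, 0.36 and −0.37 in NK318.1 mice and 2.19, 2.51 and 0.11 in GF mice. The difference between the 2 tissue ratios of a gene equals the difference between its 2 colonization ratios, so these values are not a further measurement.

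**Figure D4:**
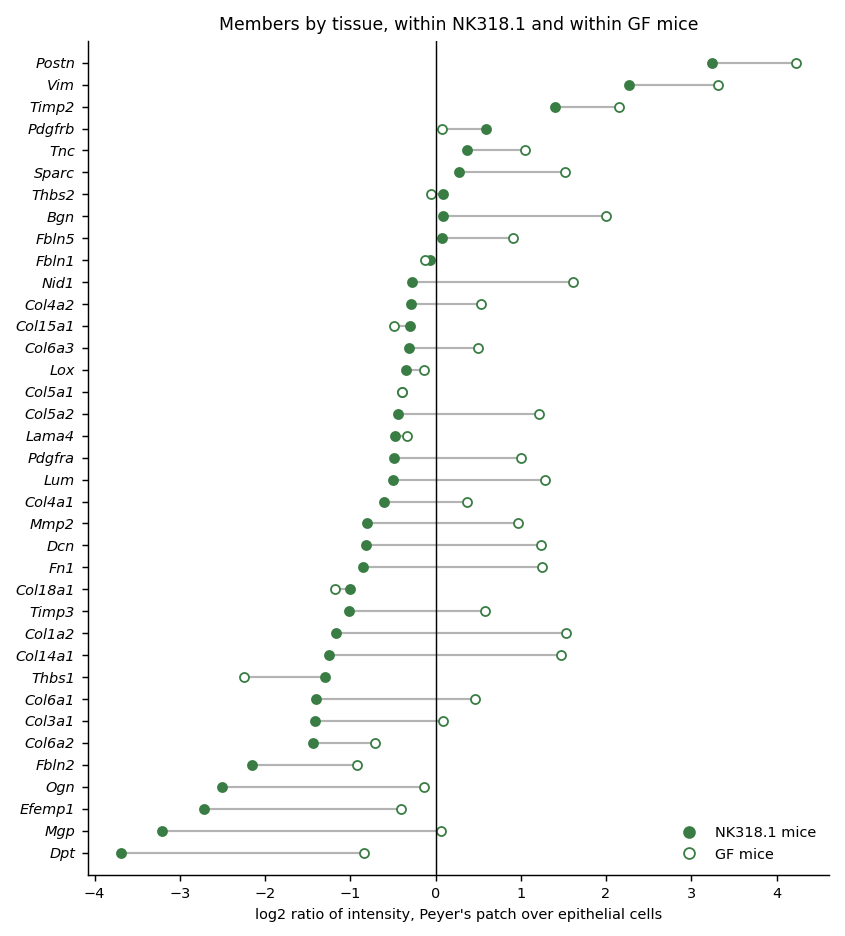
Log2 ratio of intensity, Peyer's patch over epithelial cells (horizontal), of each member measured in both kinds of mice (vertical), in NK318.1 (filled) and GF (open) mice, 1 pooled array per group. Genes under the floor on 1 of the 2 arrays are drawn at their bound. Filled points lie left of open ones for most genes; Postn is farthest right and Dpt farthest left.

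Other matrix genes, taken from 5 further lists that share no member with the 41, were closer to all genes. Members and lists were chosen with earlier results of these data known. The part of that choice in this contrast was not tested. Together 107 of their 116 genes had a probe set. In PP, 67 were measured, 0 higher (0.149% of all genes) and 1 lower (0.573%) by 2-fold, with a median of −0.04. In IEC 76 were measured, 6 higher (2.63% of all genes) and 0 lower (1.54%), with a median of 0.17. Of the 5 lists, other matrix proteoglycans and glycoproteins had the highest IEC median, 0.31. In IEC 17 of the 23 measured there were above 0 (52.4% of all genes) and 5 at least 2-fold higher. The 1 lower gene in PP was Ccn1, a secreted angiogenic matricellular protein, with 21.7 in NK318.1 PP and 71.5 in GF PP (−1.72). The IEC genes past 2-fold included Tnxb, tenascin-X (1.64), Igfbp7 and Igfbp6, binding proteins of insulin-like growth factors (both 1.35), Gpc3, a cell surface proteoglycan (at least 2.41-fold) and Pcolce2, an enhancer of procollagen processing (at least 2.24-fold). Laminins and their receptors had a median of −0.10 in PP and 0.14 in IEC, with 0 past 2-fold in either. Genes of collagen synthesis and crosslinking had a median of −0.13 in PP, with 4 of 14 above 0 and 0 past 2-fold, and 0.03 in IEC, with 7 of 14 above 0 and 1, Pcolce2, past 2-fold. Serpinh1, the collagen chaperone, had −0.06 in PP and 0.48 in IEC, and P4hb, a subunit of prolyl hydroxylase, −0.23 in PP and −0.32 in IEC.

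Fibroblast markers outside the members had a median of −0.04 in PP, where 0 of 16 were past 2-fold, and 0.37 in IEC, where 4 of 20 were higher and 0 lower. The 4 were Gsn, the actin-severing gelsolin, with 1136 in NK318.1 IEC and 386 in GF IEC (1.56), Cxcl12, a chemokine of stromal cells, at least 2.82-fold higher, Ccl11, eotaxin, at least 2.57-fold, and Cd34 at least 2.01-fold. Prrx1, a transcription factor of mesenchyme, had −0.81 in IEC. Pdpn, podoplanin, had −0.69 in PP and 0.76 in IEC.

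Smooth muscle, lymphatic and blood vessel genes were the nearest other tissue lists. Smooth muscle genes had a median of −0.13 in PP, 0 of 12 past 2-fold, and 0.53 in IEC, 6 of 15 higher and 0 lower. Acta2, smooth muscle actin, had 261 in NK318.1 IEC and 72.9 in GF IEC (1.84), and Tagln, transgelin, 106 in NK318.1 IEC and 37.6 in GF IEC (1.49). Lymphatic endothelial genes had ratios of opposite sign in the 2 tissues. Reln had 99.6 in NK318.1 PP and 277 in GF PP (−1.48), and 56.1 in NK318.1 IEC and 12.2 in GF IEC, at least 3.62-fold higher. Mmrn1 was at least 2.31-fold lower in NK318.1 PP and at least 3.22-fold higher in NK318.1 IEC. Lyve1, the hyaluronan receptor of lymphatic vessels, had 229 in NK318.1 PP and 446 in GF PP (−0.96), and 0.62 in IEC. The median of the 5 measured was −0.96 in PP and 0.76 in IEC. Blood endothelial genes had medians of −0.04 in PP and 0.06 in IEC, with 0 past 2-fold in either. The part of smooth muscle or lymphatic tissue in the matrix ratios was not tested.

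**Figure D5:**
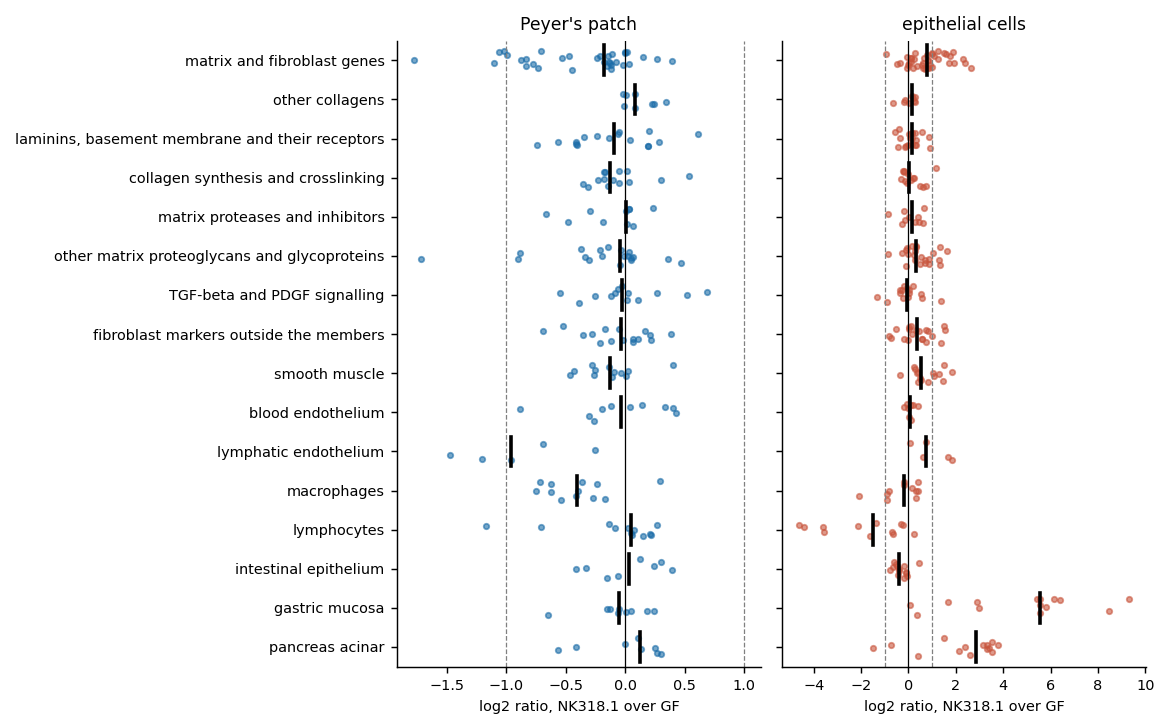
Log2 ratio, NK318.1 over GF (horizontal), of the measured genes of the matrix and fibroblast list and of other lists (vertical), in Peyer's patch (left) and epithelial cells (right, wider axis), 1 pooled array per group; points are genes, black bars medians, dashed lines 2-fold. The matrix and fibroblast median is −0.18 in Peyer's patch and 0.78 in epithelial cells, and gastric mucosa genes reach a median of 5.54 in epithelial cells.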

How the data were processed

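RNA of Peyer's patch and intestinal epithelial cells from NK318.1 and GF mice was hybridized to 4 Affymetrix mouse 3′ expression arrays, 1 of pooled RNA per group. Each deposited value is a MAS5 intensity, on a linear scale, that the authors computed for a probe set. The version of MAS5 and its scaling target were not given in the sources used here, and no further scaling was applied. Of 45037 probe sets (64 controls aside), 9160 had no gene and 932 several, and these were left out. A gene with several probe sets was read from the brightest, judged by mean log2 intensity over all arrays. For the floor, the 40th percentile of intensity was taken on each array and the median of the 4 used. The limit of 2-fold is the fold part of the criterion in the study's methods, which also set a limit on the adjusted p-value. That second part could not be applied with 1 array per group. Every member is named, with its intensity on all 4 arrays except for Fbn1, and of other lists the 4 highest, the 4 lowest and the first 3 names could be named. Members and lists were chosen with earlier results of these data known. Promoter windows came from RefSeq (GRCm38.p6). The limited number of arrays sets the precision. Scripts were tested on simulated data and run with Python 3.11.15, numpy 2.4.6 and pandas 2.3.3. Alternatives changed the scaling, the floor, the probe set rule and the fold limit.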

Additional observations from a re-analysis of the deposited data

Results flagged for a closer look

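Mgp and Fn1 were singled out because they alone were at least 2-fold lower with NK318.1 in Peyer's patch and at least 2-fold higher in epithelial cells, and the median of the members because its sign differed between tissues. With 1 array per group the difference between tissues was not tested. For Mgp the log2 ratio in Peyer's patch minus that in epithelial cells was −3.27, from −1.78 and 1.49. For Fn1 it was −2.10, from −1.02 and 1.08. For the median of the members it was −0.96, from −0.18 over 33 members in Peyer's patch and 0.78 over 40 in epithelial cells.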

How the results depend on the processing

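No paired analysis was possible because no group held more than 1 array. All 4 medians kept their sign under every alternative run. The Peyer's patch median ran from −0.46 to −0.15 and the epithelial one from 0.59 to 1.00, the far end of each with only members above 2 times the floor, an alternative chosen after seeing the data. The median of Peyer's patch over epithelial cells ran from −0.84 to −0.37 in NK318.1 mice and from 0.15 to 0.99 in GF mice. In Peyer's patch the members at least 2-fold lower numbered 2 with quantile normalization, 2 with the floor at the 60th percentile, 1 with the mean of all probe sets, 11 at 1.5-fold (2.74% of all genes) and 0 at 4-fold (0.0628%). In epithelial cells the members higher numbered 6 with the mean of all probe sets, 26 at 1.5-fold (9.31% of all genes) and 3 at 4-fold (0.469%), and the members lower numbered 1 with quantile normalization, 1 with the mean, 1 with every probe set on its own and 1 at 1.5-fold (6.80%). Among the alternatives, shares over all genes were computed only for the changed fold limits.

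Of the 4 members past 2-fold in Peyer's patch, 0 remained so under every alternative at that limit, and of the 12 in epithelial cells 5 did: Dpt, Ogn, Efemp1, Dcn and Mgp. Dpt, Efemp1 and Mgp have a single probe set, so the alternatives that changed the probe set rule could not move them. With the mean of all probe sets, Bgn had −0.61, Fn1 −0.51 and Col5a2 −0.09 in Peyer's patch. In epithelial cells the mean gave Nid1 0.05, Pdgfra 0.08, Fn1 0.35, Col1a2 0.55 and Col14a1 0.55. Except for Bgn, dim probe sets of these genes then enter. The other probe sets of Bgn were above the floor on every array, with −0.355 and −0.38 in Peyer's patch. Mgp had −0.91 in Peyer's patch with the floor at the 60th percentile. Scaling moved the median of all genes by less than 0.1 (log2). With 1 array per group, the limit on every value is the missing replicate, and members near the floor carry the least signal over background.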

Other observations

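Genes listed for fibroblastic reticular and follicular stroma, outside the matrix list, had mostly lower values in NK318.1 Peyer's patch without passing 2-fold. Of the 14 listed, 10 had a probe set, while Ccl19 and Ccl21a had none among the values used here. Of the 10 measured, 1 was above 0 (42.5% of all genes), with a median of −0.33. In epithelial cells 7 were measured, 0 higher and 1 lower by 2-fold, with a median of 0.11. Macrophage genes had a median of −0.41 in Peyer's patch, 1 of 12 above 0 and 0 past 2-fold, and −0.20 in epithelial cells, 1 of 11 at least 2-fold lower.

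Genes of TGF-beta and PDGF signalling, the growth factors that drive matrix production, had medians of −0.03 in Peyer's patch, 0 of 13 past 2-fold, and −0.07 in epithelial cells. There Tgfbr3, a co-receptor of TGF-beta, had 1.36, and Tgfbi, a matrix protein induced by TGF-beta, −1.31. Pericyte genes had medians of −0.23 in Peyer's patch and 0.03 in epithelial cells, where 1 of 6 was at least 2-fold higher, Rgs5, a regulator of G protein signalling (1.68), and 1 lower, Anpep, an aminopeptidase also made by enterocytes (−1.23).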
